A study of Homo sapiens with 2 samples.

Results

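Intergenic transcript models are described here that were read in both direct RNA libraries of GM12878, an established human line of B lymphoblasts immortalised by Epstein-Barr virus. They are the models which the authors' table places in the novelty category Intergenic and which have at least 1 read in each library. This rule holds for 547 of the 2808 intergenic models (19.5%) and of the 237608 models in the table. The models were chosen by their read counts and their category, so their presence in both libraries is a description and supports nothing. The 2 libraries are replicates 1 and 2 of 1 group, and the labels name no treatment, batch or second condition. Each was made from depleted total RNA with the same direct RNA kit and flow cell type. Where nothing says that the replicates came from separate cultures, a p-value measures only the difference between these 2 libraries, which may be technical.

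In direct RNA sequencing a native RNA strand passes through the pore from its 3′ end, so 1 read stands for 1 strand and no PCR copies are made. TALON, the program that made the table, compares each long read with the annotation and opens a new gene with a new model where a read overlaps no annotated gene. Most known RNAs from such places are long intergenic noncoding RNAs (lincRNAs), which are often spliced, are usually made at low levels and include regulators of nearby genes and of chromatin. A model with 1 exon has no splice junction, whereas a model with 2 or more exons has at least 1. Both kinds are given separately below, under the identifiers of the table, since these models have no gene names. The table lists no coordinates, so neither positions nor sequences of the models are given. It also does not say on which sequence of the reference a model lies, a chromosome, an unplaced contig or a viral genome where the reference held one, so intergenic means here only that the table assigns no annotated gene.

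Replicate 1 held 1360368 reads and replicate 2 held 1510998, so that 1 read was worth 0.735 and 0.662 CPM (reads per 1000000 reads of the library). The 7 B cell marker genes given here (MS4A1, CD79A, CD79B, CD22, PAX5, CD74 and HLA-DRA) were all read in both libraries, with at least 54 and 70 reads. Of 4 T cell genes, CD3D, CD3G and CD8A had 0 reads in both, and CD3E had 5 and 16 reads. The 3 monocyte genes had 4 and 8 reads in sum, the 3 erythroid genes 1 and 0 reads, and the 2 hepatocyte genes 0 and 1 read.

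The 547 models held a small part of each library. They received 2556 reads in replicate 1, 0.188% of the library (95% Wilson interval 0.181 to 0.195%), and 3475 reads in replicate 2, 0.230% (0.222 to 0.238%). The mean share was 0.209% ± 0.0298 (SD, n = 2). The intervals of the libraries did not overlap, and they cover counting error only. Of the reads of all intergenic models, these 547 held 70.2% in replicate 1 and 69.7% in replicate 2.

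Most of the models rested on few reads, and a few held much of the total. The median was 4 reads over both libraries together. Just inside the rule, 161 models (29.4%) had exactly 1 read in each library. Just outside it were 2025 models with a single read and 178 with 2 reads in the same library. Of the 2261 models outside, 58 had 3 or more reads and 7 had 5 or more, the highest being ENCODEHT000223817, a model of 1 exon and 2224 bases, with 0 reads in replicate 1 and 14 in replicate 2. A minimum of 2 reads in each library left 207 of the 547 models, a minimum of 5 left 74 and a minimum of 10 left 32. These 32 models held 52.03% of the reads of the 547 in replicate 1 and 56.8% in replicate 2. The 10 models with the highest smaller count held 35.1% (33.2 to 36.9%) and 36.8% (35.2 to 38.5%) of these reads, on average 35.9% ± 1.26 (SD, n = 2).

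**Figure D1:**
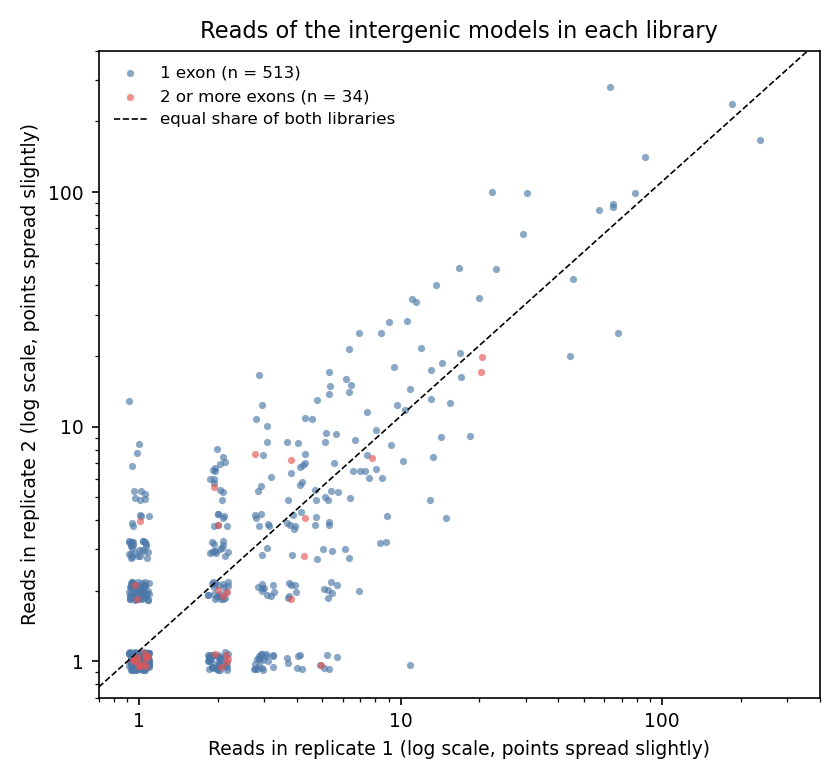
Reads of each of the 547 intergenic models in replicate 1 (horizontal axis) and replicate 2 (vertical axis), both on log scales, with points spread slightly so that equal counts can be seen. Blue points are the 513 models with 1 exon, red points the 34 models with 2 or more exons, and the dashed line marks an equal share of both libraries; most points sit at a few reads, and no red point lies above 21 reads in either library.

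Single-exon models made up nearly all of the set. Of the 547 models, 513 had 1 exon and 34 had 2 or more, a spliced share of 6.22% (Wilson interval 4.48 to 8.56%). Among the spliced models, 25 had 2 exons, 5 had 3, 1 had 4, 2 had 5 and 1 had 8. Over all 2808 intergenic models the spliced share was 8.19% (7.23 to 9.26%), which overlaps the interval of the 547. Antisense models, which lie on the opposite strand of an annotated gene and were also opened as new genes, gave 35 spliced models of 587 read in both libraries, 5.96% (4.32 to 8.18%). Genomic models, which overlap a gene, annotated or new, without matching its splicing, gave 84 of 10561, 0.795% (0.643 to 0.984%). Annotated lincRNA genes had a higher spliced share. Of 216 known models of GENCODE lincRNA genes read in both libraries, 110 were spliced, 50.9% (44.3 to 57.5%), and of all 13609 known models 89.3% were (88.7 to 89.8%). Models are not replicates, and these shares were not tested against each other. They also depend partly on how the categories are defined. Models of lincRNA genes in other categories are left out of the 216. Each new gene holds at most 1 intergenic model, and its further models, many of them spliced, stand in other categories.

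Recurrence of intergenic models between the libraries was then set out by exon number. Of 230 spliced models, 34 met the rule (14.8%, Wilson interval 10.8 to 19.9%), against 513 of 2578 with 1 exon (19.9%, 18.4 to 21.5%); the rule itself sets these shares, the intervals overlap and no test was made. Among the spliced models 184 (80.0%) had a single read in all, against 1841 (71.4%) of those with 1 exon. With at least 5 reads over both libraries together, 12 of 12 spliced models and 201 of 208 single-exon models were read in both.

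Length had a lower median in spliced models. The median was 745 bases (quartiles 578 and 1140) for the 34 spliced models and 995 bases (612 and 1431) for the 513 with 1 exon. The rule did not name length, but longer single-exon models met it more often. Models under 500 bases were 17.5% of the 513, against 27.5% of all single-exon intergenic models. The difference in medians is therefore not independent of the rule, and the same split was not made for spliced models. The 95% interval of the median, from binomial order statistics over models, was 611 to 945 bases for spliced and 918 to 1049 bases for single-exon models, and the quartile ranges overlap widely. Antisense models showed nearly the same pair of medians, 746 bases when spliced and 1006 with 1 exon. Known models of lincRNA genes had medians of 757.5 and 1249.5 bases. Spliced intergenic models ranged from 319 to 3045 bases. Among those with 1 exon, 1 model was listed at 1 base, which is not a transcript length, the next shortest had 120 bases and the longest 4908.

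**Figure D2:**
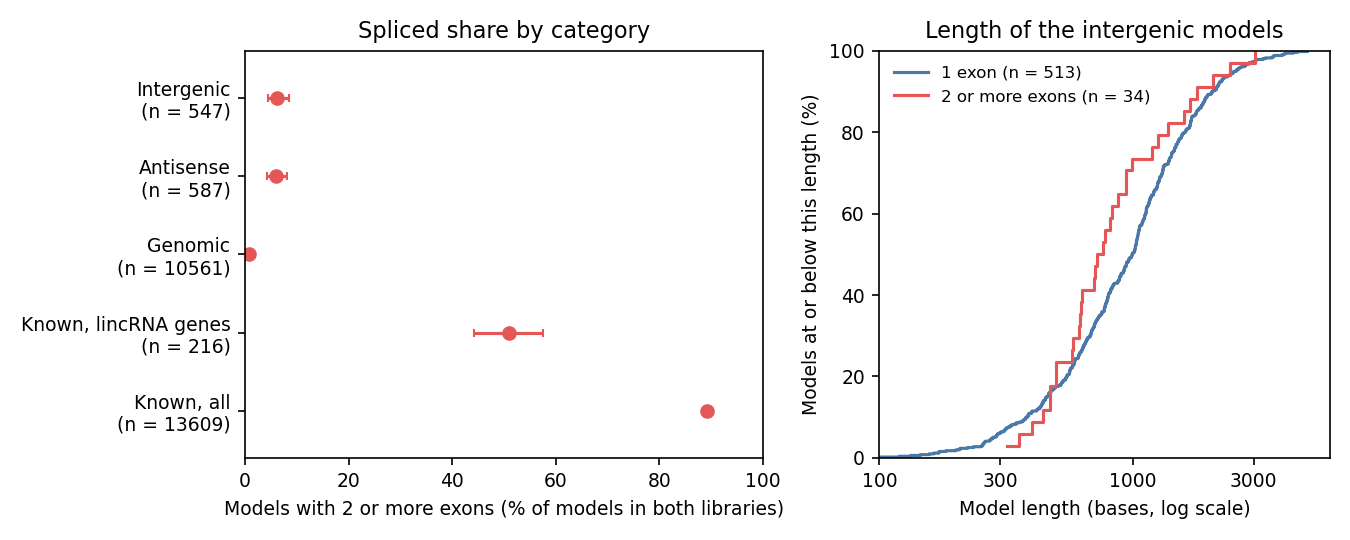
Left, the share of models with 2 or more exons among the models read in both libraries, in percent, for 5 categories, with 95% Wilson intervals as bars: 6.22% of intergenic and 5.96% of antisense models against 50.9% of known models of lincRNA genes. These shares depend partly on how the categories are defined. Right, the cumulative share of the intergenic models (percent) against model length in bases on a log scale; the red curve of the 34 spliced models reaches 50% at a shorter length than the blue curve of the 513 single-exon models, and the 1-base model lies left of the axis.

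Recurrence was also set out by length. Of single-exon intergenic models under 500 bases, 90 of 709 were read in both libraries (12.7%, Wilson interval 10.4 to 15.3%). The share was 17.0% (14.8 to 19.5%) from 500 to under 1000 bases, 27.8% (24.7 to 31.2%) from 1000 to under 2000 bases, and 33.5% (26.8 to 41.1%) for the 164 models of 2000 bases or more. The shares are part of the rule and carry no test. The median number of reads did not follow the same order. Within the models read in both libraries the median total was 4 reads in each of these bins except that from 500 to under 1000 bases, where it was 3.

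The most abundant single-exon model was ENCODEHT000247722, 577 bases long, with 236 reads in replicate 1 and 172 in replicate 2. It was the highest of the 547 in replicate 1 and the third highest in replicate 2. ENCODEHT000424497, of 1395 bases, had 170 and 228 reads and did not pass the test between libraries described below (adjusted p of 0.209, exact binomial test). These were the only 2 models with at least 100 reads in each library, and together they held 15.9% of the reads of the 547 in replicate 1 and 11.5% in replicate 2.

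Behind them came ENCODEHT000223267 (986 bases) with 84 and 98 reads and ENCODEHT000661577 (389 bases) with 79 and 131 reads. ENCODEHT000268306 (1787 bases) had 67 and 83 reads. ENCODEHT000268590, with 274 bases, and ENCODEHT000408955, with 310 bases, were the shortest among the first 10. They had 61 and 89 reads and 58 and 84 reads. ENCODEHT000337091 (843 bases) had 45 and 40 reads, close to an even split. The longest of the first 10 were ENCODEHT000223956 (2686 bases) with 64 and 284 reads and ENCODEHT000268640 (3954 bases) with 32 and 71 reads, both with the higher count in replicate 2.

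On a scale of mean CPM per kilobase of model the order differed. In direct RNA sequencing each read stands for a strand, so counts need no division by length. This scale raises short models through the division alone, and the order on it is not an order of abundance. ENCODEHT000247722 was still first of these 10, at 249 CPM per kb. The short models ENCODEHT000268590 (189), ENCODEHT000661577 (186) and ENCODEHT000408955 (158 CPM per kb) then lay above ENCODEHT000424497 (98.9 CPM per kb), and ENCODEHT000268640 was lowest at 8.92 CPM per kb.

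Spliced models were all at low levels, as were most single-exon models. Fewer than 10 reads over both libraries together were found for 29 of the 34 spliced and 419 of the 513 single-exon models. The 34 spliced models received 107 reads in replicate 1 and 111 in replicate 2. The highest was ENCODEHT000214669, with 2 exons and 500 bases, at 21 reads in each library (15.4 and 13.9 CPM). ENCODEHT000400860, with 2 exons and 811 bases, followed at 19 and 17 reads. Between them they held 37.4% (Wilson interval 28.8 to 46.8%) and 34.2% (26.1 to 43.5%) of the reads of the spliced models. No spliced model reached 50 reads in a library, and only 8 of the 513 single-exon models did so in both. With 34 spliced models, the absence of such a model says little.

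The other spliced models had at most 8 reads in a library. ENCODEHT000590583, with 5 exons in 702 bases, had 8 and 7 reads. ENCODEHT000241578 had the most exons of the set, 8 in 1589 bases, and 3 and 8 reads. ENCODEHT000287085 (2 exons, 826 bases) had 4 and 7 reads. ENCODEHT000481442, the longest spliced model (2 exons, 3045 bases), had 4 reads in each library, and ENCODEHT000222983 (2 exons, 1377 bases) had 4 and 3. The last of the first 10 were ENCODEHT000577222 with 2 and 6 reads, ENCODEHT000443209 with 4 and 2, and ENCODEHT000558442 with 2 and 4. Of these 10 models, 5 had the 10 reads needed for the test between libraries. None of them passed it, against 17.1% of all spliced models tested, and 5 models are too few to differ from that share. The third model with many exons, ENCODEHT000224754 (5 exons, 724 bases), had 1 read in each library.

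**Figure D3:**
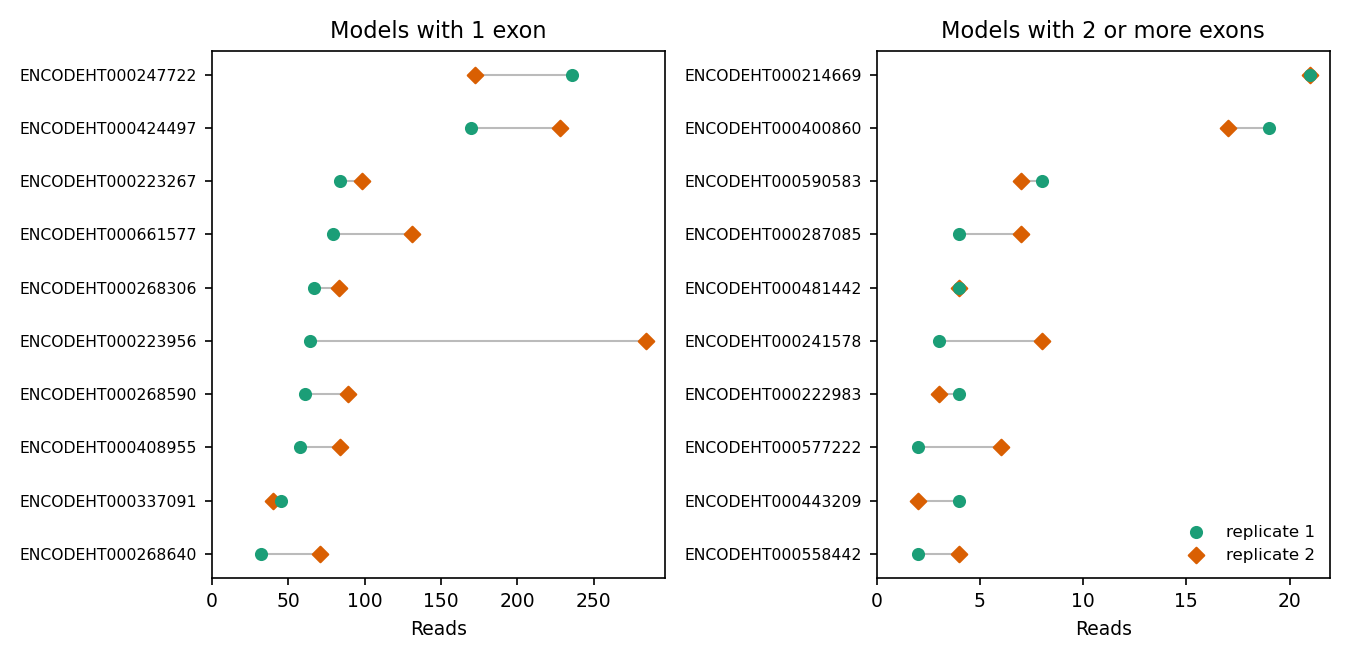
Reads (horizontal axis) in replicate 1 (green circles) and replicate 2 (orange diamonds) of the 10 single-exon models (left) and the 10 models with 2 or more exons (right) with the highest smaller count, ordered by that count; the 2 panels have different axes. The left panel spans 32 to 284 reads, with the widest gap at ENCODEHT000223956, and the right panel 2 to 21 reads.

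The 3 longest models were also single-exon and sparsely read. ENCODEHT000585895, of 4908 bases, had 2 and 3 reads, ENCODEHT000608447, of 4482 bases, had 1 read in each library, and ENCODEHT000457733, of 4316 bases, had 4 and 6 reads. This does not hold further down the order of length. Next came ENCODEHT000243029 (4000 bases) with 67 and 25 reads and ENCODEHT000268640 (3954 bases) with 32 and 71 reads.

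Each of the 547 models stood under its own new gene identifier, since the table holds at most 1 intergenic model per gene. Further reads at the same locus are listed as models of other categories under that gene, and the rule did not use them. For 498 of the 547 (91.0%, Wilson interval 88.4 to 93.2%) the intergenic model was the only one. The other 49 genes held 112 further models, of which 82 were spliced and 31 were read in both libraries. By category these were 43 genomic, 33 incomplete splice matches, 29 with an unannotated splice site and 7 with a new combination of splice sites of the new gene. They received 125 reads in replicate 1 and 137 in replicate 2.

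Further models were more frequent where the intergenic model was itself spliced. They were present in the genes of 26 of the 34 spliced models (76.5%, Wilson interval 60.0 to 87.6%) and of 23 of the 513 single-exon models (4.48%, 3.01 to 6.64%). The intervals are far apart. However, incomplete splice matches and new combinations are defined by the splice sites of a gene, so these shares depend partly on the definitions. The models share libraries and are not replicates, so no test was made. In each of those 23 single-exon genes at least 1 of the further models was spliced. In 18 of the 49 genes the further models held more reads than the intergenic one, and in 14 of these 18 the intergenic model was spliced.

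The genes with the most further models were looked at after these counts had been seen. ENCODEHG000063932, the gene of the 8-exon model ENCODEHT000241578, held 10 further models, 9 of them spliced, with 27 and 21 reads. The 8-exon model itself took 10% of the 30 gene reads in replicate 1 and 27.6% of the 29 in replicate 2, so the gene as a whole was read almost evenly. ENCODEHG000110234 held 9 further spliced models with 11 and 6 reads beside the single-exon model ENCODEHT000538351, which had 7 reads in each library. In ENCODEHG000117980, 6 further models with 8 and 16 reads accompanied the 5-exon model ENCODEHT000590583. Some of the more abundant models with further models beside them held most reads of their gene. ENCODEHT000424497 held 97.1% and 95.4% of its gene, ENCODEHT000223956 held 98.5% and 100%, and the 2-exon model ENCODEHT000214669 held 91.3% and 87.5%. By contrast, ENCODEHT000590583 held 50% and 30.4%, and ENCODEHT000538351 held 38.9% and 53.8%.

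To compare the replicates model by model, a two-sided exact binomial test was fitted to every model of the table with at least 10 reads in both libraries together, 25381 in all, with Benjamini-Hochberg adjustment over all of them. Of the 547 models 99 could be tested, 94 with 1 exon and 5 spliced. The rule removes models with 0 reads in a library, so the counts below describe the set, and they compare 2 libraries and not conditions. At an adjusted p under 0.05, 18 of the 99 differed (18.2%), against 15.6% of all models tested. Of these, 14 were higher in replicate 2 (14.1%, against 8.23% of all models tested) and 4 were lower (4.04%, against 7.34%). Among the 8459 single-exon models tested in the whole table, 11.8% were higher and 0.757% lower, against 14.9% and 4.26% of the 94 single-exon models of the set; the differences between these shares were not tested. With library totals scaled by TMM, 13 of the 99 differed, of which 8 were higher and 5 lower. This was a lower share than the 16.4% of all models tested that differed with TMM, the opposite order to that with library totals. None of the 5 spliced models passed in this test, and none had an unadjusted p under 0.05. Of the 16922 spliced models tested in the whole table, 17.1% differed with library totals. With 5 models of few reads, none passing is near that share and does not show that they were stable.

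The median log2 ratio of replicate 2 to replicate 1, with 0.5 reads added to each count, was 0.38 over the 99 models and 0.14 over all models tested. TMM scaling shifted all ratios down, to medians of 0.24 and -0.01. Single-exon models of the other categories had medians on the same side with library totals, 0.38 for antisense, 0.45 for genomic, 0.32 for known and 0.62 for incomplete splice matches. Of the 99 models, 63 lay within a log2 ratio of 1 in either direction.

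ENCODEHT000223956, with 64 and 284 reads, had the smallest p of the set, 2.85e-27 after adjustment in the exact binomial test, at a log2 ratio of 1.99. Larger ratios came from few reads, 1 and 12 reads for ENCODEHT000208705 (157 bases, log2 ratio 2.91, adjusted p 0.0299) and 3 and 18 reads for ENCODEHT000223326 (715 bases, log2 ratio 2.25, adjusted p 0.0173 by exact binomial test). In the other direction, ENCODEHT000243029, a model of 4000 bases, was lower in replicate 2, at 67 and 25 reads (log2 ratio -1.56, adjusted p 2.70e-05 by exact binomial test). ENCODEHT000242984 (1032 bases) had 46 and 20 reads (log2 ratio -1.33), and ENCODEHT000243738 (785 bases) had 11 reads and 1 read (log2 ratio -3.09). The most abundant model, ENCODEHT000247722, was lower in replicate 2 as well (log2 ratio -0.61, adjusted p 0.000468 by exact binomial test). Of the models named, ENCODEHT000208705 and ENCODEHT000661577 did not pass with TMM-scaled totals (adjusted p of 0.0534 and 0.150, exact binomial test), with the ratio still above 0.

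**Figure D4:**
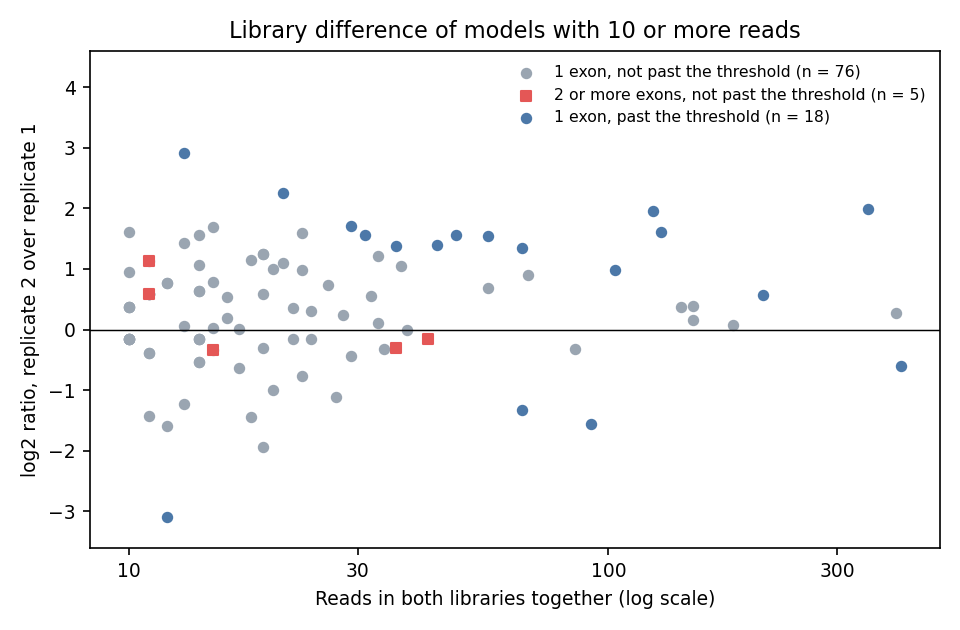
The log2 ratio of replicate 2 over replicate 1 (vertical axis, library totals, 0.5 reads added) against the reads of both libraries together (horizontal axis, log scale) for the 99 intergenic models with 10 or more reads. Blue points are the 18 single-exon models past an adjusted p of 0.05, 14 above and 4 below the line at 0; grey points and the 5 red squares (spliced) did not pass.

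The share of reads in spliced models was compared between the libraries last. Spliced models held 4.19% (Wilson interval 3.48 to 5.03%) of the reads of the 547 in replicate 1 and 3.19% (2.66 to 3.83%) in replicate 2. Over both libraries this averaged 3.69% ± 0.701 (SD, n = 2). Fisher's exact test of these reads, two-sided, gave a p of 0.0431. The call was lost with at least 2 reads in each library (p of 0.105), with replicate 2 thinned to the depth of replicate 1 (p of 0.0600), with 3 or more exons counted as spliced (p of 0.306) and without ENCODEHT000223956 (p of 0.126). It was also lost without the 2 highest spliced models (p of 0.194, Fisher's exact test). The call held with at least 5 reads in each library, where the mean share was 2.39% (p of 0.0321, Fisher's exact test). Only 3 spliced models were left there, and the test counted each read as a unit. Over all 2808 intergenic models, spliced models held 216 reads in each library, 5.93% and 4.33% of the intergenic reads (p of 0.000804, Fisher's exact test). The reads of the whole libraries in spliced models made up 77.2% and 70.8%.

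The same model moved the length over reads. The read-weighted mean length of the single-exon models was 1223 bases in replicate 1 and 1322 in replicate 2, and 1184 and 1196 bases without ENCODEHT000223956. Models of 2000 bases or more held 13.7% and 19.8% of the single-exon reads, and 11.4% and 12.4% without it.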

How the data were processed

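The deposited data are unnormalized read counts in 1 table, in which every transcript model has a row and each replicate a column. The number of exons and the length of each model are other properties that the authors deposited in the same table. The file's name shows that TALON made it. Per the submitters' processing notes, minimap2 and hg38 were used; versions, annotation release and read filters are not given in the sources used here. Both count columns were matched to a sample by title, and 0 per-sample columns were left unused. All 16645 annotated gene identifiers were found in GENCODE release 29, which supplied the lincRNA gene type.

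The members, lists and tests were chosen with earlier results of these data known. Reads were counted as deposited. Shares have Wilson 95% intervals, which cover counting error only. Libraries were compared by exact binomial tests (two-sided, scipy 1.17.1) of each model's counts against the library totals, over models with at least 10 reads; p-values were adjusted by Benjamini-Hochberg, and 0.05 was the threshold; edgeR 4.0.16 supplied TMM factors for an alternative. The design has 1 group, so conditions were not tested. The test was tried on simulated Poisson counts, which have no variation beyond counting. It recovered 183 of 200 models changed 4-fold and called 8 unchanged models. The changed models were drawn only from models well above the minimum of 10 reads. Recovery near that minimum, where most of the tested intergenic models lie, was therefore not tried. The simulation does not cover other differences between the real replicates. At these depths, 3 reads correspond to 2.21 and 1.99 CPM.

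Models named are the 10 with 1 exon and the 10 spliced ones with the highest smaller count, the 3 longest, the 3 with most exons, and the 3 largest library ratios past the threshold in each direction. The rule also asked for the 3 new genes with most members. As each holds 1, the genes with most further models were named instead, after their values were seen. Of the marker genes planned for the check of the cell type, 1 is not reported here.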

Additional observations from a re-analysis of the deposited data

How the results depend on the processing

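No paired analysis was possible because the series has a single group. With either replicate left out, the values were those of the remaining library, 0.188 to 0.230% for the share of all reads, 3.19 to 4.19% for the spliced share of the reads and 35.1 to 36.8% for the first 10 models. Of 64 values under other settings, 39 stayed within the limits set for them.

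A minimum of 2 reads in each library left 207 models under 207 genes, with 0.174% of all reads, 43.2% of their reads in the first 10 and a spliced share of reads of 3.29% (Fisher's exact test, p of 0.105). A minimum of 5 left 74 models under 74 genes, 3 of them spliced (4.05%), with 0.140% of all reads and 53.8% in the first 10. The spliced share of reads was then 2.39% (Fisher's exact test, p of 0.0321). Counting a model as spliced from 3 exons gave 1.65% of the models and 0.815% of the reads (p of 0.306, Fisher's exact test). Thinning replicate 2 to the depth of replicate 1 gave 3.62% of the reads (p of 0.0600). Chosen after seeing the data, leaving out the 2 highest spliced models gave 2.39% (p of 0.194), and leaving out ENCODEHT000223956 gave 3.89% (p of 0.126). As a part of reads outside genomic models the set held 0.241%, and of intergenic and antisense reads 25.9%. Without the highest model the next 10 held 33.1%.

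The 18 models that differed between the libraries became 13 of 99 with TMM scaling (8 higher in replicate 2), 12 of them the same models. Of all models tested, 16.4% differed with TMM. With no minimum on reads, 7 of the 547 differed (4 higher), against 0.865% of the 237608 models tested. Among models with at least 2 reads in 1 library or both, the share with at least 2 in each was 33.0% for single-exon models. It was 38.2% for spliced models, 13 of which met this minimum. The order is opposite to that at 1 read, but the base is smaller and no test was made. Among models with at least 5 reads in all, recurrence was 96.6% for single-exon and 100% for spliced models.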

Other observations

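New intergenic genes also hold reads outside the set described. The table lists 2905 such genes, and 636 of them had a read in both libraries when all their models were summed, 89 of which hold none of the 547 models. Of these 636 genes, 141 (22.2%) had at least 1 spliced model. An intergenic model is missing in 97 of the 2905 genes, and 33 of the 97 were read in both libraries. The most abundant model there was ENCODEHT000208708, a genomic model of 2 exons and 705 bases under ENCODEHG000059207, with 13 and 7 reads.

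The abundant models were unevenly spread over the numbers of the gene identifiers, which was noticed after the data had been seen. In windows of 200 consecutive gene numbers, 267 windows held at least 1 of the 547 models, with a median of 2 models and 7 reads. The window from 61600 to 61799 held 15 models, all with 1 exon, with 9.23% of the reads of the set in replicate 1 and 17.7% in replicate 2. The window from 69200 to 69399 held another 15 single-exon models, with 9.90% and 13.3%. Of the 18 models that differed between the libraries, 4 lay in each of these windows, all of them higher in replicate 2. How many models of each window had the 10 reads needed for the test was not counted. These counts therefore have no share to set beside the 18.2% of the 99 models and the 15.6% of all models tested. What order the numbers follow and on which reference sequence these models lie is not stated, so no position was read from them.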
